A study of Homo sapiens with 30 samples.

Results

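The MYC domain was taken as the stretch of hg19 chromosome 8 from position 128700000 to 130700000. It holds the start of MYC at 128748315, the gene PVT1 at 128806779-129113499, and a long gene-poor stretch beyond PVT1. Every peak sharing at least 1 bp with this window was kept. The members were 593 of the 195094 H3K27ac peaks in 25 SEACR lists and 79 of the 392838 H3K27me3 peaks in 5 SEACR lists. MACS2 lists of 6 of the same libraries added 30, 52, 2, 23 and 50 H3K27ac peaks (ab177178, ab4729, Active Motif, Diagenode at 1/100 and Diagenode at 1/50) and 13 H3K27me3 peaks.

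CUT&Tag was run on K562, an established human chronic myeloid leukaemia line, with 500000 cells per experiment. In this assay an antibody on chromatin recruits a transposase that tags the DNA beside it. Acetylation of histone H3 at lysine 27 was profiled with ab177178, ab4729 and Active Motif 39133 at 1/100 and Diagenode C15410196 at 1/50 or 1/100, and trimethylation with CST9733 at 1/100. The 5 untreated H3K27ac libraries and 1 H3K27me3 library made with SDS extraction and 15 PCR cycles were joined by 4 H3K27ac libraries with TSA (trichostatin A, a histone deacetylase inhibitor; ab177178, ab4729 and both Diagenode dilutions, SDS, 15 cycles). A further 16 H3K27ac and 4 H3K27me3 untreated libraries crossed SDS or column extraction with 11 or 13 cycles, using Diagenode at 1/50 and the other antibodies at 1/100. Each condition had 1 library, so no single value has a replicate error, and p-values over pairs of conditions measure only the spread among those conditions. H3K27ac lists held 3024 to 22808 peaks and H3K27me3 lists 65283 to 106997, on chromosomes 1 to 22 and X. Per the labels, peaks at 11 and 13 cycles were called on downsampled reads, and nothing of the kind is stated for 15 cycles. The read depth behind each list is unknown, and no value is corrected for the copy number of the locus.

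MYC encodes a transcription factor that drives cell growth and proliferation and is often overexpressed in leukaemia. PVT1 is a long noncoding RNA gene that lies next to MYC on the same strand. H3K27ac marks active promoters and enhancers, the latter often lying far from the genes they act on, whereas H3K27me3 is laid down by Polycomb repressive complex 2 over silenced chromatin. In blood cells, enhancers of MYC are known both within PVT1 and in a cluster much farther downstream.

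The window as a whole had more H3K27ac coverage than its length would give in every library, though the coverage was uneven along it. Peaks covered 5.22 kb of the window in the untreated Active Motif list and 83.7 kb in the TSA-treated ab4729 list, with a median of 25.1 kb over the 25 lists. The covered share of the window was 2.52 to 8.58 times that of the same list over chromosomes 1 to 22 and X, with a median of 5.02. In 1398 bins of the window's length, the window's H3K27ac coverage exceeded that of 89.6% to 99.6% of bins (median 97.4%). The H3K27me3 lists gave 0.197 to 0.374 times their own overall covered share, above 36.1% to 45.4% of bins. All 25 H3K27ac ratios were above 1 and all 5 H3K27me3 ratios were below it.

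**Figure D1:**
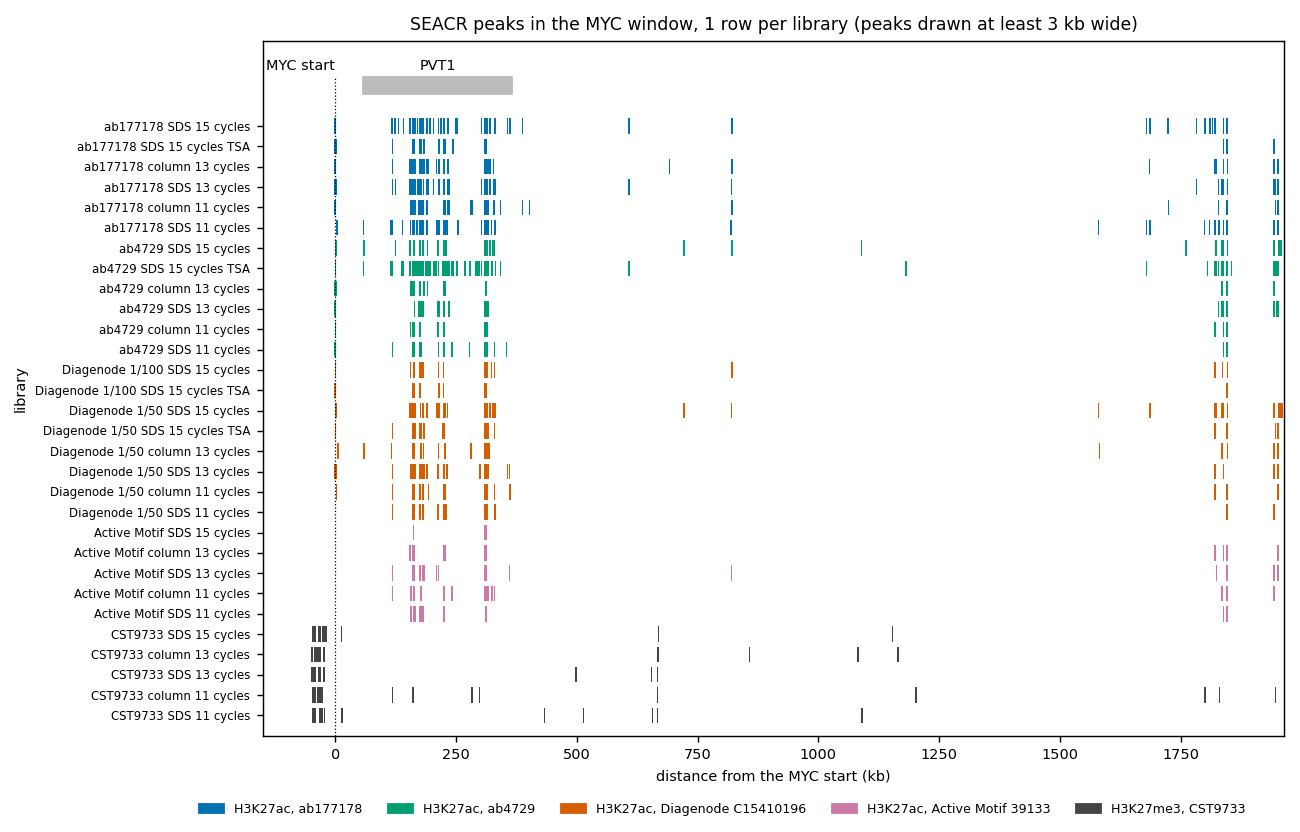
SEACR peaks of the 30 libraries, 1 row each, against distance from the MYC start in kb, with colour giving the antibody and the grey bar PVT1; peaks narrower than 3 kb are drawn 3 kb wide. H3K27ac peaks gather in PVT1 and again near the far end of the window, and H3K27me3 peaks gather upstream of MYC.

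Most of the acetylated length lay inside PVT1. Summed over the 25 lists, 74.1% of the covered length fell in PVT1, which makes up 15.3% of the window, and by list this share ran from 64.7% to 100%, with a median of 74.5%. The stretch from the end of PVT1 to the end of the window, 79.3% of its length, held 21.3%. The span from the MYC start to the PVT1 start held 2.84% and the span upstream of MYC 1.77%. H3K27me3 had the opposite placement. Upstream of MYC, in 2.42% of the window, lay 76.8% of its covered length summed over 5 lists, and PVT1 held 3.07%, all from the column list at 11 cycles.

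Peaks of the 25 H3K27ac lists were merged where they overlapped, which gave 78 regions in the window. At least 13 lists held 14 of these, or 17.9%, against 13.4% of the 34663 regions over all chromosomes used. All 25 lists held 3, or 3.85%, against 1.06%. These include the region across the window end, of which only 14 lists had a peak in the window. A single list held 27 regions, or 34.6%, against 47.4%. The shares were not tested against each other. Merged regions can chain separate peaks together, so single bases were counted as well. Bases under peaks of at least 13 lists made up 20 stretches of 20542 bp in all, those of at least 20 lists 10 stretches of 8017 bp, and a single stretch of 176 bp in the window, chr8:129059120-129059295 in PVT1, was under a peak in all 25 lists.

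The MYC promoter carried H3K27ac with 3 of the 4 antibodies. The merged region chr8:128746302-128751815, which spans the MYC start, was held by 6 of 6 ab177178 lists, 6 of 6 ab4729 lists, 6 of 8 Diagenode lists and 0 of 5 Active Motif lists. The Diagenode lists without it were those at 1/50 with SDS at 11 cycles and with a column at 13 cycles. Some lists held the region only away from the start. With ab177178, SDS and 11 cycles the nearest peak, chr8:128751008-128751423, lay 2.69 kb downstream. With Diagenode 1/50, a column and 11 cycles it was chr8:128750724-128751815, 2.41 kb downstream. List size moved with presence. The 18 lists with the region held 4462 to 22808 peaks, and the 7 without it 3024 to 7191. Of those 7, 5 were smaller than every list with the region, among them both Diagenode lists (4008 and 3761 peaks), and the others were Active Motif with SDS at 13 cycles (6070 peaks) and with a column at 11 cycles (7191 peaks). The part of list size in these absences was not tested.

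A peak lay over the MYC start itself in 4 of 5 untreated lists at 15 cycles, in 3 of 4 TSA lists, in 5 of 8 lists at 13 cycles and in 1 of 8 at 11 cycles. Within 1 kb of it the counts were 4 of 5, 4 of 4, 5 of 8 and 3 of 8. No H3K27me3 list had a peak within 1 kb of the MYC start (0 of 5). By antibody, the start was covered in 5 of 6 ab4729, 3 of 6 ab177178, 5 of 8 Diagenode and 0 of 5 Active Motif lists. The MACS2 lists, at 15 cycles only, placed peaks over the start with ab4729 (3262 bp, rank 6296 of 25765 by −log10 q-value), Diagenode 1/100 (402 bp, rank 1726 of 7626) and Diagenode 1/50 (977 bp, rank 8446 of 21137). With ab177178 MACS2 called none within 5 kb, where SEACR called a peak of 1995 bp in the same library.

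**Figure D2:**
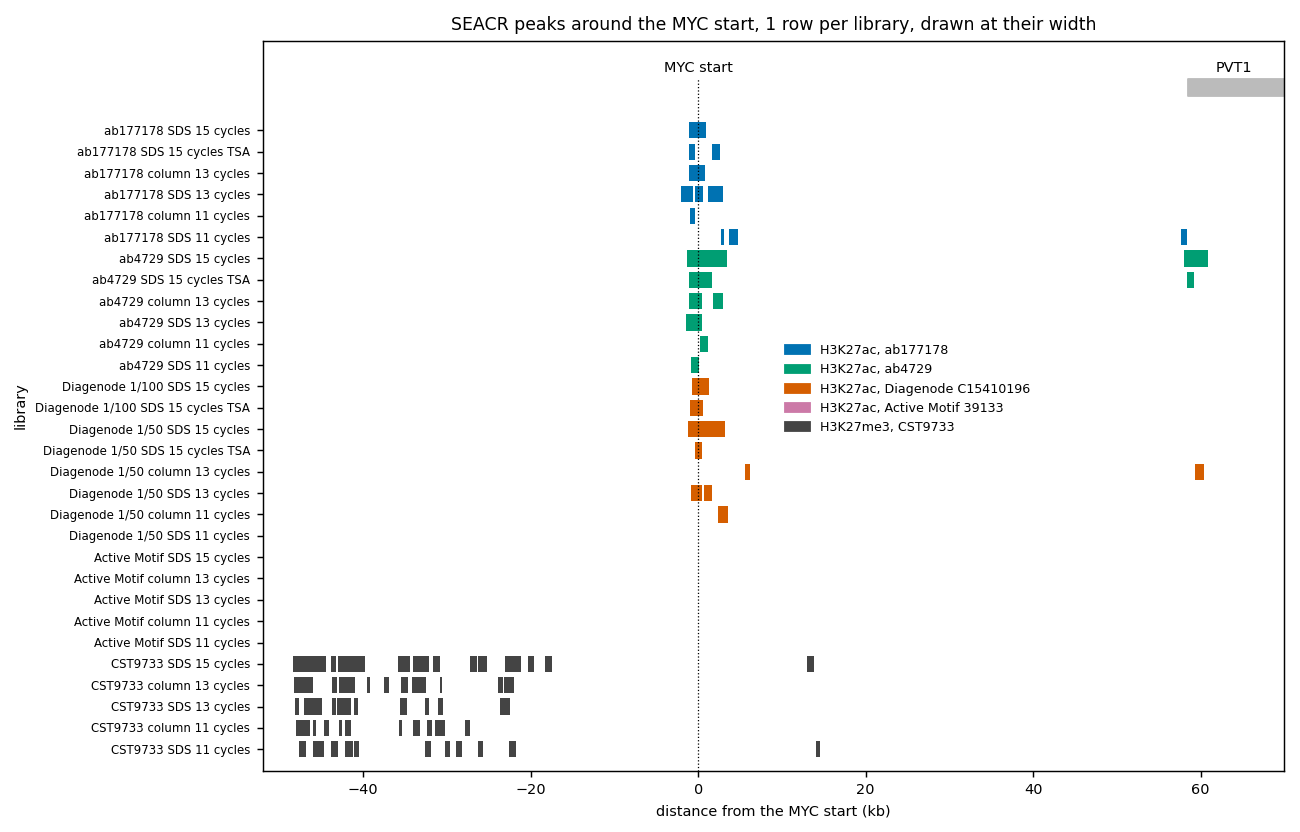
SEACR peaks of the 30 libraries around the MYC start, 1 row each, at their own width, against distance from the MYC start in kb, with the start of PVT1 in grey. H3K27ac peaks sit at MYC in 18 lists, within the merged region, and in none of the 5 Active Motif rows. The last H3K27me3 peak upstream ends 17.5 to 27.2 kb before the MYC start, and 2 lists have an H3K27me3 peak between the MYC and PVT1 starts.

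The strongest peak of the merged MYC region varied widely in strength within its own list. Ranked by SEACR total signal and expressed as a percentile of the list (100 is the strongest peak), its lowest value over 18 lists was 0.381, its median 64.95 and its highest 92.7. This need not be the peak over the start. With ab177178, SDS and 13 cycles the peak over the start stood at 21.5. Another peak of the region in that list, chr8:128749508-128751245, stood at 76.4. With ab4729 at 15 cycles the peak was 4873 bp wide, at chr8:128746914-128751786, and ranked 1809 of 13394. With ab177178 at 15 cycles it ranked 5962 of 16623, and in the column library of that antibody at 13 cycles 697 of 8210. TSA lists gave percentiles of 92.7 against 86.5 untreated (ab4729), 71.0 against 65.8 (Diagenode 1/100) and 0.381 against 83.8 (Diagenode 1/50). With ab177178 the untreated peak stood at 64.1, and the TSA peak that overlapped it, chr8:128747259-128747895, at 16.3. A second TSA peak of that library, chr8:128749924-128750877, lay downstream of the untreated peak and stood at 59.96. At the MYC start, the percentile was thus higher with TSA in 2 pairs and lower in 2, and the Diagenode 1/50 peak under TSA was among the weakest of its list.

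The PVT1 start was acetylated in few lists. The region chr8:128805927-128809176 at the start of the gene was held by 4 of 25 lists, namely ab4729 at 15 cycles with and without TSA, ab177178 with SDS at 11 cycles and Diagenode 1/50 with a column at 13 cycles. A peak lay over the start itself in the first 2 of these. The median percentile over the 4 lists was 32.7. No H3K27me3 list had a peak within 1 kb of the PVT1 start. The body of PVT1, by contrast, held H3K27ac peaks in all 25 lists.

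Of the 3 regions held by all 25 lists, the one with the highest median rank lay toward the 3′ end of PVT1. At chr8:129056481-129065460, about 313 kb downstream of the MYC start, all 25 lists had peaks, covering 1591 to 8471 bp (median 5860 bp). Its percentile was lowest at 58.2 with Active Motif, SDS and 13 cycles, had a median of 97.7, and was highest at 99.6 with ab177178, SDS and 13 cycles, where it ranked 30 of 8149. In the 5 untreated lists at 15 cycles its best peak ranked 634 of 16623 (ab177178), 296 of 13394 (ab4729), 823 of 3024 (Active Motif), 478 of 7834 (Diagenode 1/100) and 110 of 11844 (Diagenode 1/50). The Active Motif library gave the lowest percentile of these 5, at 72.8. Active Motif also gave the lowest of all at 13 cycles with SDS, whereas its other 3 lists stood at 94.7 (SDS, 11 cycles), 97.5 (column, 13 cycles) and 99.1 (column, 11 cycles). It contained the strongest peak of the window in 20 of 25 lists.

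In the other 5 lists the strongest window peak lay elsewhere. It was in chr8:128901873-128914609 for Active Motif and Diagenode 1/100 at 15 cycles, in chr8:128969437-128984968 for ab4729 with TSA and for ab177178 with a column at 13 cycles, and in chr8:130593617-130596966 for Active Motif with SDS at 13 cycles. The strongest window peak of each list ranked between 30 and 634, at percentiles of 90.7 to 99.6.

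Farther 5′ in PVT1 the region chr8:128901873-128914609, about 160 kb from the MYC start, was likewise held by all 25 lists. Its percentiles ran from 72.5 to 98.8 with a median of 89.8, the narrowest range of the regions held by all lists. The wide region chr8:128969437-128984968, about 229 kb out, was held by 23 lists and ranged from 52.7 to 99.5 with a median of 93.9. The 2 lists without it were Active Motif with SDS at 15 and at 13 cycles. Between them lay chr8:128922830-128926465 (23 lists, median 66.7), chr8:128927428-128932926 (19 lists, median 73.3), chr8:128937300-128941377 (11 lists, median 42.5) and chr8:128959677-128964954 (17 lists, median 70.3). Active Motif lists held these intermediate regions in 3, 2, 0 and 1 of 5 respectively, so each was missing from at least 2 of them. The remaining common regions of PVT1 were chr8:128865846-128867646, about 118 kb out, in 13 lists (median 51.9), and chr8:129070661-129080346, about 327 kb out, in 14 lists (median 60.9).

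Beyond PVT1 the majority regions stopped for a long distance. No region held by at least 13 lists lay between 129080346 and 130567376, a gap of 1487 kb that runs from 332 to 1819 kb downstream of the MYC start. Within it, the longest span without an H3K27ac peak in any list was 397 kb (129930146 to 130327259). The most widely held region of the gap was chr8:129568597-129570300, about 821 kb out, in 9 of 25 lists: 4 of the 5 untreated libraries at 15 cycles, 0 of 4 TSA libraries and 5 of the 16 downsampled lists. This is a region in the gene-poor stretch whose median percentile was 29.1 and whose highest was 52.7. MACS2 also called it in 4 of 5 lists, all but Active Motif. The ab4729 MACS2 list had its strongest window peak, ranked 1210 of 25765, at chr8:129470488-129471239 in the same stretch, where SEACR called a peak in 2 of 25 lists.

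Peaks returned near the far end of the window, between 1819 and 1956 kb from the MYC start. The region chr8:130593617-130596966 was held by 23 lists, and all 23 summits lay within 1 kb of their median. Its percentile was lowest at 7.68 with Diagenode 1/50, SDS and 11 cycles, had a median of 76.1, and was highest at 97.2 with ab4729 and TSA. The neighbouring region chr8:130581786-130588306 was held by 18 lists (median 70.9), and chr8:130567376-130573476 and chr8:130689955-130693105 by 13 and 14 (medians 14.1 and 36.3). Presence and rank thus differed within the cluster, since the last pair had low medians in the lists that held it. Percentiles of that pair varied widely, from 1.19 to 82.0 and from 17.8 to 81.4.

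The last region, chr8:130699137-130710813, crossed the end of the window and reached 10.8 kb beyond it. All 25 lists held it, with percentiles from 33.8 (ab4729, column, 13 cycles) to 99.6 (ab177178, SDS, 13 cycles) and a median of 96.2. Only 14 lists had a peak of it that entered the window, and the median summit lay outside. The counts of the window's regions therefore include it. The window's peak counts and signal shares leave out those of its peaks that do not enter the window. Peaks of it that do enter count with their whole signal. An example is chr8:130699224-130710768 of untreated Diagenode 1/50 at 15 cycles, ranked 147 of 11844.

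**Figure D3:**
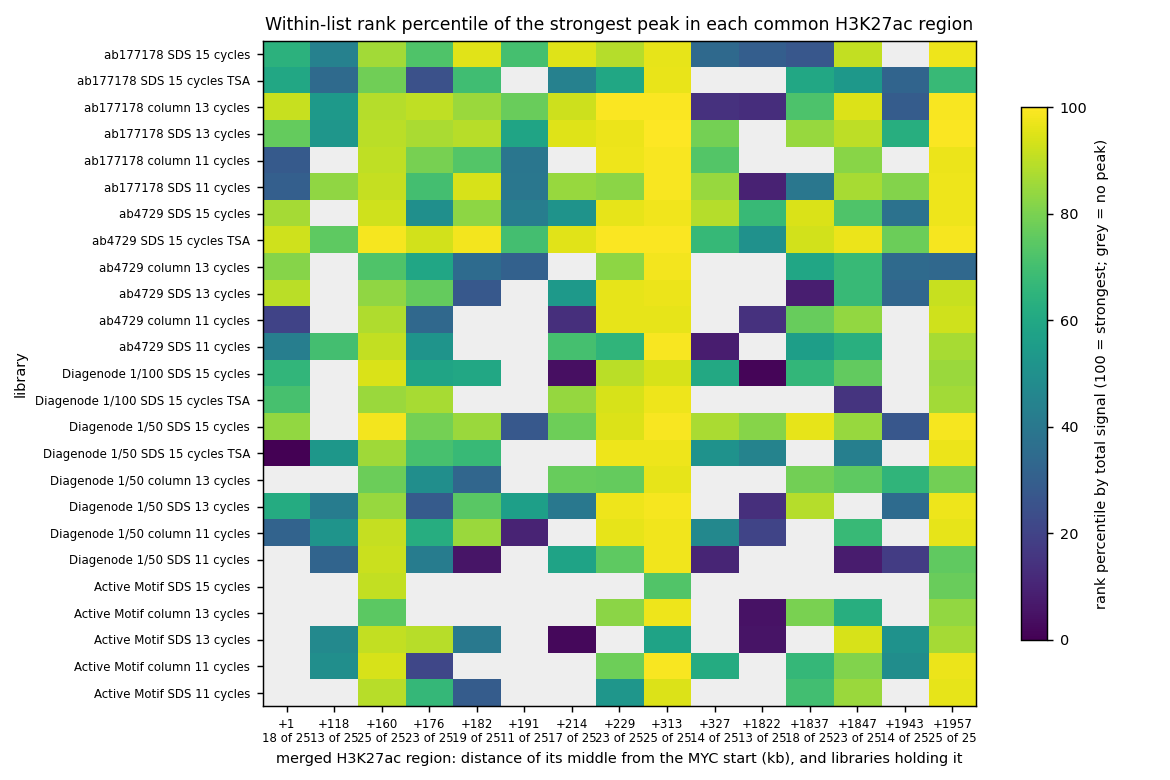
Rank percentile by SEACR total signal of the strongest peak of each of the 25 H3K27ac libraries (rows) in the 15 most widely held H3K27ac regions (columns, by distance of the region's middle from the MYC start in kb and number of libraries); grey means no peak. The columns at +160, +313 and +1957 kb are filled in every row, and the MYC column is grey in all 5 Active Motif rows.

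Several distal regions ranked above the merged MYC region within the same list, each region taken by its strongest peak. This was so for chr8:129056481-129065460 in 18 of the 18 lists that held both, for the region across the window end in 17 of 18, for chr8:128969437-128984968 in 17 of 18 and for chr8:128901873-128914609 in 15 of 18. The medians over those 18 lists were 98.0, 97.0, 96.2 and 89.4, against 64.95 for the MYC region. Other distal regions did not outrank MYC so often. The counts were 12 of 17 for chr8:130593617-130596966, 10 of 18 for chr8:128922830-128926465, 1 of 11 for chr8:130567376-130573476 and 1 of 10 for chr8:130689955-130693105. The rest were 10 of 15 for chr8:128927428-128932926, 9 of 14 for chr8:130581786-130588306, 7 of 14 for chr8:128959677-128964954 and 7 of 12 for chr8:129070661-129080346. To these add 4 of 10 for chr8:128865846-128867646 and 3 of 11 for chr8:128937300-128941377. Total signal grows with peak width, so these ranks order summed signal and not height. The distal regions compared were those held by most of these same lists, with ties settled by mean percentile. A region with several peaks in a list was taken by its best.

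Among the 5 untreated lists at 15 cycles alone, all 5 held 3 of 46 regions of the window, or 6.52%, against 6.76% over all chromosomes used, a share near the background. The 3 were the regions at about 160 and 313 kb and the one across the window end. Active Motif held the last of these only through chr8:130704407-130705670, which lies beyond the window end. The Active Motif list set the count of 3. Without it, the other 4 lists shared 13 of 46 regions, or 28.3%, against 19.8% over all chromosomes used. The MYC promoter region was among the 13. In the MACS2 lists of the same libraries, all 5 held 1 of 75 regions, or 1.33%, against 2.63%, at chr8:129057036-129063581. The Active Motif MACS2 list had only 2 peaks in the window.

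The H3K27me3 block at the upstream end of the window stopped short of MYC in each of the 5 libraries. Peaks upstream of MYC covered 15.2% to 35.2% of that sector, and peaks downstream of the MYC start 0.0923% to 0.250% of the rest of the window. The window start cut this block. In the 50 kb outside it, peaks covered 16.1% to 52.7%, more than in the upstream sector in each of the 5 lists. The window's H3K27me3 coverage thus depends on where the window begins. The last upstream peak ended 17.5 kb before the MYC start at 15 cycles. With SDS the distance was 21.7 kb at 11 cycles and 22.5 kb at 13 cycles, and with a column 27.2 and 21.98 kb. Some of these edge peaks were weak. Their percentiles were 16.8 (SDS, 15 cycles), 76.3 (SDS, 11 cycles), 15.6 (SDS, 13 cycles), 52.3 (column, 11 cycles) and 90.7 (column, 13 cycles). In 2 libraries a weak peak lay nearer, on the downstream side. These were chr8:128761263-128762099 (SDS, 15 cycles, 12.9 kb, percentile 10.4) and chr8:128762393-128762821 (SDS, 11 cycles, 14.1 kb, percentile 9.83). MACS2 placed 11 of its 13 H3K27me3 peaks upstream of MYC, the last ending at 128730643, close to the SEACR end of 128730838 in the same library.

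Of 37 merged H3K27me3 regions in the window, 3 were held by all 5 lists, or 8.11%, against 10.3% of 147671 over all chromosomes used. They were chr8:128698966-128704275, which crosses the window start, chr8:128704439-128708549 and chr8:128714144-128716558, with median percentiles of 92.5, 93.4 and 76.4. Regions of a single list numbered 28, or 75.7%, against 53.5%. Downstream of MYC, chr8:129415527-129416426, about 668 kb out, was the most widely held. It was found in 4 of 5 lists, all but the one at 15 cycles, and covered 428 to 900 bp. The remaining downstream regions were held by 1 or 2 lists, so most of the H3K27me3 calls around PVT1 and beyond did not recur.

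Overlaps of the 2 marks in the domain were each seen in 1 H3K27me3 library only. Of the 37 H3K27me3 regions, 7 overlapped a merged H3K27ac region, or 18.9%, against 6.94% over all chromosomes used. All 7 were held by 1 H3K27me3 list each, 6 of them by the column list at 11 cycles alone. They were 433 to 638 bp wide and included chr8:128909047-128909559 inside the PVT1 region held by all 25 H3K27ac lists. Without that list, 1 overlap remained, from the SDS list at 11 cycles.

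Extraction, cycle number and TSA were compared through the share of each list's H3K27ac signal in peaks that touched the window. The window makes up 0.0659% of the chromosomes used. A peak across the window end counted with its whole signal, so the share depends on where peaks break there. Lists after downsampling gave shares of 0.191% to 0.596% (median 0.345%). With 8 pairs matched on antibody and cycles, the mean was 0.349% with SDS and 0.334% with a column. The difference of -0.0150 ± 0.0766 percentage points (SD, n = 8 pairs; higher with a column in 2 of 8) was smaller than the spread of the pairs (exact two-sided sign-flip permutation test, p = 0.570, Benjamini-Hochberg adjusted over 3 tests 0.570). Each antibody gave a pair at both cycle numbers, and the test took these as independent. At 11 cycles alone the mean difference was -0.0475 ± 0.0392 (SD, n = 4 pairs) and at 13 cycles 0.0175 ± 0.0966. Without ab177178 the mean over both cycle numbers was 0.00214, and without Active Motif -0.0409. The sign of the mean thus differed between the cycle numbers, and the difference between them was not tested.

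Window shares at 13 cycles were higher than at 11 cycles in 7 of 8 pairs, with means of 0.386% and 0.298%. The difference was 0.0881 ± 0.0781 percentage points (SD, n = 8 pairs; exact permutation p = 0.0234, adjusted p = 0.0703) and did not pass 0.05 after adjustment. Each antibody gave a pair with SDS and a pair with a column, and the test took these as independent. With SDS the difference was 0.0556 ± 0.101 (3 of 4 pairs higher) and with a column 0.121 ± 0.0352 (4 of 4). The exception was Active Motif with SDS, at 0.244% with 11 cycles and 0.191% with 13. The largest share of any list, 0.596%, belonged to ab177178 with SDS at 13 cycles. H3K27me3 lists gave window shares of 0.0108% to 0.0212% and were not tested.

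**Figure D4:**
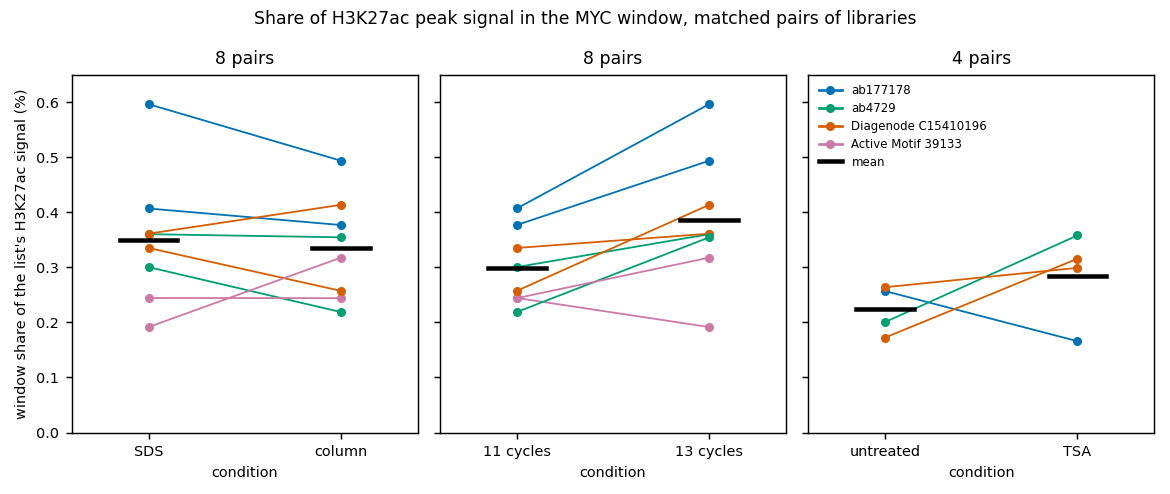
Share of each list's total H3K27ac peak signal in peaks that share at least 1 bp with the window (percent). Libraries matched in all other factors are joined by lines, colours give the antibody and black bars the mean. In 7 of 8 pairs the share is higher at 13 than at 11 cycles, and the 4 TSA pairs include 1 that falls.

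TSA was compared in 4 pairs at 15 cycles. With ab177178 the share was 0.257% untreated and 0.166% with TSA, and with ab4729 it was 0.201% and 0.358%. Diagenode gave 0.172% and 0.316% at 1/100 and 0.264% and 0.299% at 1/50. The mean difference, TSA minus untreated, was 0.0612 ± 0.115 percentage points (SD, n = 4 pairs; exact permutation p = 0.375, adjusted p = 0.562), where 4 pairs cannot give a p below 0.125. Diagenode gave a pair at each dilution, and the test took these as independent. The share of signal was higher in 3 of 4 pairs, and ab177178 went the other way. By share of covered length and by share of peak number, 4 of 4 pairs were higher with TSA. The mean differences were 0.0764 and 0.0838 percentage points. For signal, the mean difference was 0.112 without ab177178, and without ab4729 it was 0.0291. With all sequences kept it was 0.0298, with 2 of 4 pairs higher.

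Peak calls in the domain split differently by antibody under TSA. With ab4729 the window went from 22 to 65 peaks with covered lengths of 81.9 and 83.7 kb, and the median width went from 3568 to 938 bp. Peaks of the whole ab4729 list narrowed as well, from a median of 2736.5 bp untreated to 922 bp with TSA. Of the 65 peaks, 41 had no overlap with an untreated peak of the same antibody, 32 of them in PVT1 and 9 beyond it. That was 63.1% of the window's TSA peaks, against 48.4% of the 22808 TSA peaks of this antibody over all chromosomes used, and the 2 shares were not tested against each other. In the other TSA lists such peaks numbered 4 of 20 (ab177178), 1 of 12 (Diagenode 1/100) and 3 of 21 (Diagenode 1/50). Untreated peaks without a TSA overlap were 32 of 46 (ab177178), 6 of 22 (ab4729), 8 of 17 (Diagenode 1/100) and 11 of 21 (Diagenode 1/50). For these counts no share over all chromosomes used was computed. With ab177178 the window held 46 peaks over 71.9 kb untreated and 20 over 17.7 kb with TSA. Diagenode gave 17 and 12 peaks at 1/100 (29.5 and 18.6 kb) and 21 and 21 at 1/50 (83.3 and 26.96 kb). The list as a whole moved too, since ab4729 had 13394 peaks untreated and 22808 with TSA, and ab177178 16623 and 7056. Diagenode lists held 7834 and 4462 peaks at 1/100 and 11844 and 6301 at 1/50. At 1/50 the window's share of the list's covered length was 0.261% untreated and 0.332% with TSA. The part of total list size in these window counts was not tested. The region about 313 kb from MYC was held in all 8 lists, at percentiles of 96.2 and 96.6 (ab177178), 97.8 and 99.3 (ab4729), 93.9 and 97.5 (Diagenode 1/100), and 99.1 and 97.7 (Diagenode 1/50), untreated first.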

How the data were processed

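CUT&Tag reads were processed by the authors to peak lists on hg19, and the submitters' processing notes name, with no role or order, 2 peak callers (SEACR and MACS2), bedtools 2.25.0, Bowtie2 2.2.9, Trim Galore 0.6.6, SAMtools 1.3.1, Picard 2.6.0 and bcl2fastq. Lists were called per library on reads without duplicates, per the labels. No source used here states the SEACR mode or threshold. The deposited SEACR lists give a total and a maximum signal per peak, and only the total was used, to rank peaks within a list and for shares. Each deposited MACS2 list holds −log10 p- and q-values beside a fold ratio and a score, and its peak names hold a q of 0.00001 and a no-lambda setting. Ranking of MACS2 peaks used the authors' −log10 q-value alone, without the deposited fold ratio and score. The lowest value deposited for H3K27me3 was 1.76, below that q setting.

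Chromosomes 1 to 22 and X were kept, which left out 0.449% to 5.82% of a list's peaks. Peaks sharing 1 bp were merged into regions. Regions named were those at the MYC and PVT1 starts, the 15 H3K27ac and 10 H3K27me3 regions held by most lists, and those at the window ends, and only some are printed. Others, such as the regions of the gap and the 7 overlaps, were chosen after their values were seen. Members, regions and sectors were chosen with earlier results of these data known. MYC and PVT1 positions come from the definition of the domain, since the gene table in hand is on GRCh38. No sequence of the locus is printed and no marker check of the cell line was run. Matched pairs were tested by two-sided sign-flip permutation over all sign patterns (exact), with Benjamini-Hochberg adjustment over 3 tests. Alternatives covered the measure, sequences kept, peak threshold, window, antibodies, merging, overlap and caller. Software was pandas 2.3.3, numpy 2.4.6, matplotlib 3.10.9 and scipy 1.17.1 under Python 3.11.15. Overlap code tested on simulated data from 13394 peaks found 5586 overlaps, as bedtools did.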

Additional observations from a re-analysis of the deposited data

How the results depend on the processing

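The 13 minus 11 cycle and TSA minus untreated differences in the window's share of H3K27ac signal kept their sign under every alternative run. Both stayed above an adjusted p of 0.05. For TSA that was fixed in advance, since 4 or fewer pairs cannot give a sign-flip p below 0.125. The size of the TSA difference did not hold: 0.0612 percentage points in the report, it ran from 0.0291 (without ab4729) to 0.112 (without ab177178), and 2 of 4 pairs were higher with all sequences kept or with the 3000 strongest peaks. With the share of covered length or of peak number, 4 of 4 pairs were higher with TSA. Column minus SDS, -0.0150 percentage points in the report, turned to 0.00801 with the 3000 strongest peaks of each list and 0.00214 without ab177178. H3K27ac regions in at least 13 of 25 lists fell from 14 to 8 with the 3000 strongest peaks and to 2 where a list's peaks had to cover 50% of the region. Regions in all 5 untreated lists at 15 cycles went from 3 to 0 under that overlap, to 1 with MACS2 and to 13 without the Active Motif list. H3K27me3 regions in all 5 lists went from 3 to 0 under it, since merged regions are wider than single peaks. The H3K27me3 covered share of the window at 15 cycles, 0.969% in the report's window, was 0.702% with MACS2, 0.636% with the 60000 strongest peaks and 0.0965% from the end of PVT1 to the window end. Some alternatives were chosen after seeing the data, namely the counts without the Active Motif lists or the H3K27me3 column list at 11 cycles and a window extended over the region across its end. The extended window gave -0.0275 (extraction), 0.0919 (cycles) and 0.0946 (TSA). Without Active Motif, 15 H3K27ac regions were in at least 11 of 20 lists, and without that H3K27me3 list 4 regions were in all 4 lists. TSA without Active Motif was not run, as that antibody had no TSA library. No paired analysis by replicate was possible because each condition had 1 library. Unknown depth limits presence counts, since an absent peak may be a weak one.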
